A study of Mus musculus with 8 samples.

Results

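The genes described are the tumour necrosis factor (TNF) ligand and receptor superfamilies in mouse skin. Members were the rows of the gene table whose symbol starts with Tnfsf or Tnfrsf, together with Tnf, Lta, Ltb, Ltbr, Fas, Fasl, Cd27, Cd40, Cd40lg, Cd70, Eda, Edar and Eda2r. This rule used no measured value and found 46 of the 34745 rows, namely 18 ligands, 26 receptors and 2 further transcripts of the Tnfsf12 and Tnfsf13 locus. Ngfr and Relt, a pair of receptors of the same family, were not matched by their names. They did not pass the test (log2 fold change -0.42 ± 0.35 SE, adjusted p = 0.354, and 0.52 ± 0.40, adjusted p = 0.313, edgeR).

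RNA was sequenced from excised skin of 4 NcstnΔKC and 4 normal mice, all 16 weeks old and labelled male. The deleted gene, Ncstn, makes nicastrin, part of the membrane protease γ-secretase. NcstnΔKC mice were Ncstn flx/flx; Krt14 CreER+/- animals given oral tamoxifen. Dosing began at 8 weeks of age with 20 mg/kg daily over 5 days, and was repeated at intervals of 10 days. The normal mice received corn oil. The protocol gives them the same floxed and Krt14 CreER alleles, whereas their genotype label reads wildtype. The Krt14 promoter drives the recombinase in keratinocytes, so other cells of the skin keep Ncstn, and agent and deletion cannot be told apart in this design. Both groups' tissue is described as lesions. No label says whether a library is 1 animal beyond the word replicate, so p-values measure the spread between these samples.

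TNF ligands are mostly trimeric membrane proteins, some released by proteolysis, that bind receptors with cysteine-rich extracellular repeats. Receptors with a death domain recruit adaptors such as TRADD or FADD and can lead to caspase activation, and others recruit TRAF proteins and activate NF-κB and MAP kinases. In skin the family is known for TNF-driven inflammation, for co-stimulation of T cells, and for ectodysplasin signalling in hair follicle development. Decoy receptors bind ligand without a full signal.

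Total counts per library were 5835422 to 8663753 in normal and 11881506 to 12893174 in NcstnΔKC skin, so 1 count weighed less in the NcstnΔKC libraries. Ncstn itself was 60.6 ± 1.54 CPM (counts over the scaled library size, SD, n = 4) in normal and 57.7 ± 6.86 in NcstnΔKC skin, a difference that did not pass the test (adjusted p = 0.663, edgeR's quasi-likelihood test). Replicates 3 and 4 of each group held 22304 to 37109 Xist counts and at most 3 counts of 4 Y-linked genes, against their label male. The other 4 libraries held at most 9 Xist counts. NcstnΔKC replicate 1 stood apart, with a correlation of at most 0.916 with its own group, where the other NcstnΔKC libraries reached 0.967 or more with at least 1 other. Its summed macrophage marker level was 725 CPM against 3312 to 4268 in the other 3, and its mast cell level 94.7 against 357 to 501. In whole skin, fewer cells of a type and less RNA per cell cannot be told apart.

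Receptors rather than ligands made up most of the members that rose. Of the 36 members that passed the filter on low counts, 11 were higher and 1 was lower in NcstnΔKC skin at an adjusted p under 0.05, and 24 did not pass (edgeR's quasi-likelihood test, Benjamini-Hochberg over 15684 genes). The called share was 33.3%, below the 44.1% of all tested genes, of which 21.4% were higher and 22.7% lower. Groups did not overlap in 12 members, against 41.6% of all tested genes. The median log2 fold change was 0.51 over the tested members and -0.02 over all tested genes. Among 22 tested receptors 9 were higher and 1 lower, and among 13 tested ligands 2 were higher. The difference between ligands and receptors was not tested. The other 10 members were below the filter and are given by their counts.

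These counts depended on the libraries and on the scaling. All 12 called members had the same sign in the libraries with Xist and in those without. As they were called on these same libraries, that sign was largely fixed beforehand and is no separate support. In the 2 against 2 libraries with Xist, 21 members were higher and 4 lower of 42 tested. Of 16219 genes tested there, 4267 were higher and 4120 lower. In the libraries without Xist none of 36 was called by edgeR, 6 had an unadjusted p under 0.05, and only 4 of all genes were called. A test of group by Xist called none of the 36 members (edgeR, lowest adjusted p = 0.613, for Tnfrsf4), with 7 at an unadjusted p under 0.05. Without NcstnΔKC replicate 1, 16 members were higher and 3 lower of 38 tested, beside 3870 higher and 4124 lower of 15843 genes. Scaling to basal keratinocyte genes, which lowered the median of all genes to -0.50, left 8 higher and 4 lower. Total-count scaling, which raised that median to 0.29, gave 14 higher and 0 lower. Of 15684 genes, 1000 were higher and 5821 lower under basal keratinocyte scaling, and 5323 and 2224 under total-count scaling. The 12 members kept their direction under every scaling tried.

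**Figure D1:**
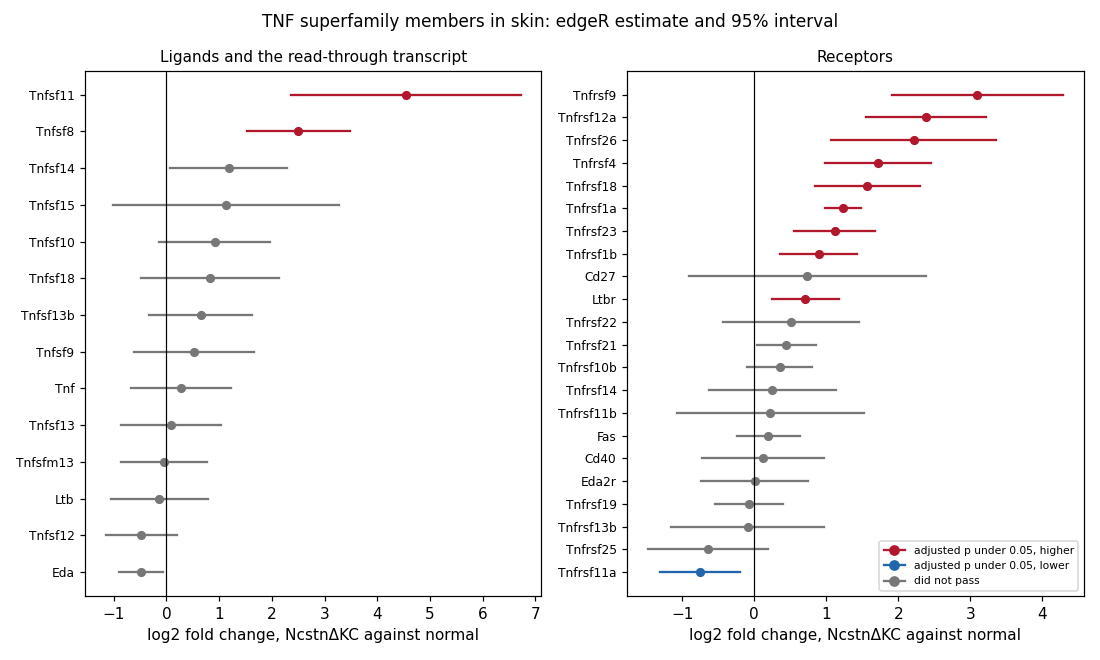
Estimated log2 fold change of NcstnΔKC against normal skin for each tested member, with bars for the 95% interval and colour for the call at an adjusted p under 0.05. The 11 higher members lie to the right of 0, Tnfsf11 farthest at 4.54, and the 1 lower member is Tnfrsf11a at -0.76.

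Per length, receptors were the more abundant side. Levels between genes are compared here on the authors' FPKM values (fragments scaled by gene length and library total). Receptors had a median of 1.63 FPKM over their normal means and ligands 0.530. Tnfrsf1a, the main receptor for TNF on most cell types, was highest in both groups, at 24.3 ± 4.08 FPKM (SD, n = 4) in normal and 71.4 ± 8.19 in NcstnΔKC skin. Next in normal skin came Tnfrsf19 (TROY, a receptor related to Edar) at 16.5 ± 2.85, Ltbr at 12.8 ± 2.89 and Tnfrsf21 (DR6, a death-domain receptor) at 12.0 ± 3.87. These 3 neighbours overlapped. In NcstnΔKC skin the places after Tnfrsf1a were held by Ltbr at 26.2 ± 6.89 and Tnfrsf12a at 25.6 ± 4.02, whose libraries also overlapped. No ligand's mean exceeded 4.30 FPKM in normal or 4.11 in NcstnΔKC skin. Mean FPKM was over 1 for 5 of 18 ligands in normal and 12 in NcstnΔKC skin, and for 15 and 17 of 26 receptors. These counts are levels without a test. With scaling by library total, which FPKM uses, the median gene was 0.29 higher (log2) in NcstnΔKC skin, and on log2 (FPKM + 1) 0.20 higher.

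**Figure D2:**
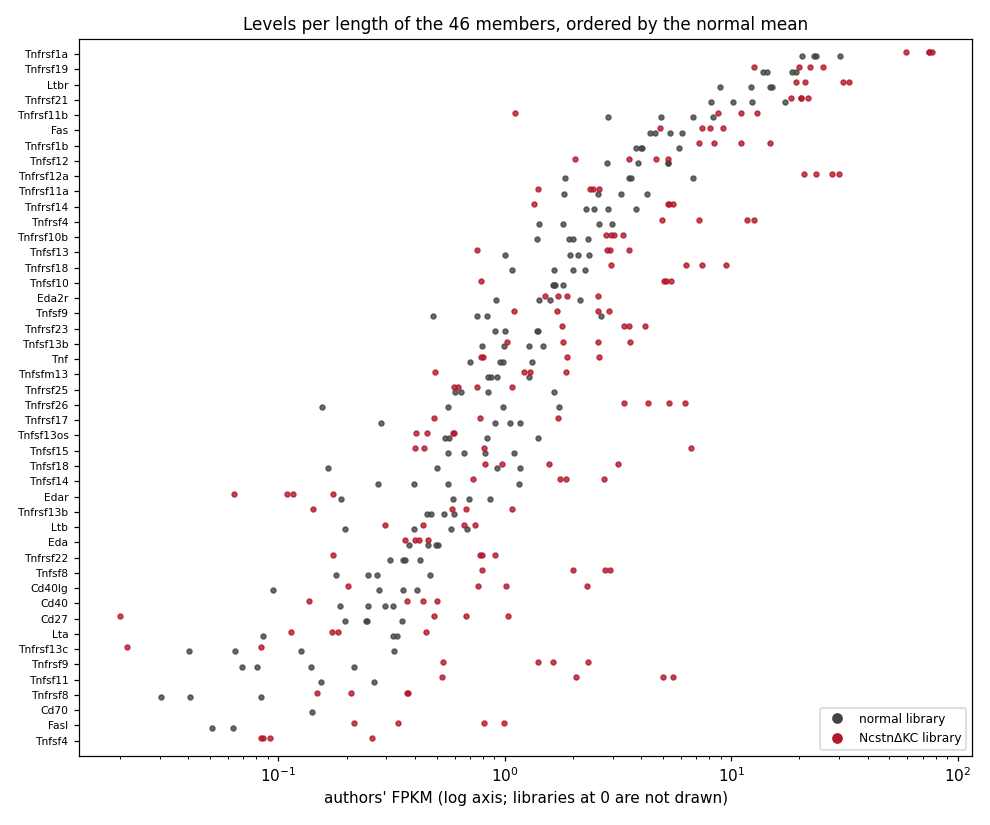
Authors' FPKM of each member in each library on a log axis, 1 point a library, ordered by the normal mean, with libraries at 0 left out. Tnfrsf1a is at the top in both groups, and Tnfsf11, Tnfrsf9 and Tnfrsf12a show NcstnΔKC points well to the right of the normal ones.

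Both TNF receptors and the lymphotoxin β receptor rose, while TNF itself did not pass. Tnfrsf1a, the death-domain TNF receptor (chr6:125349362-125362484), was at 116, 102, 94.3 and 97.5 CPM in normal replicates 1 to 4 and at 222, 242, 253 and 244 in NcstnΔKC replicates 1 to 4. The groups were far apart on the log2 scale (1.23 ± 0.11 SE, adjusted p = 0.000153, edgeR's quasi-likelihood test). Tnfrsf1b, the TNF receptor without a death domain (chr4:145213463-145246870), was at 15.2, 18.5, 19.1 and 25.1 CPM in normal and 28.1, 28.3, 38.1 and 50.4 in NcstnΔKC skin. Its groups did not overlap either (0.89 ± 0.24, adjusted p = 0.0146, edgeR), but the call was lost under basal keratinocyte scaling (0.40). The FPKM ratio of Tnfrsf1b to Tnfrsf1a was 0.126 to 0.248 in normal and 0.112 to 0.199 in NcstnΔKC libraries, so the receptors kept overlapping proportions. Ltbr, the receptor for membrane lymphotoxin and LIGHT (chr6:125306571-125313885), was at 42.8, 48.6, 30.2 and 37.0 CPM in normal and 53.5, 50.5, 75.4 and 79.3 in NcstnΔKC skin. NcstnΔKC replicates 1 and 2 lay just above the highest normal library (0.71 ± 0.21, adjusted p = 0.0211, edgeR). The call was lost without NcstnΔKC replicate 3 (0.63) or 4 (0.60) and under basal keratinocyte scaling (0.21). Ltbr and Tnfrsf1a are neighbours, 35.5 kb apart on chromosome 6. Tnfrsf14 (HVEM, the other receptor for LIGHT) did not pass, with NcstnΔKC replicate 1 at 2.18 CPM and the other 3 at 7.38 to 7.88.

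Tnf (chr17:35199381-35202007) was at 4.10, 3.43, 3.67 and 2.35 CPM in normal and 2.43, 2.05, 5.05 and 6.85 in NcstnΔKC skin. NcstnΔKC replicates 3 and 4, which hold Xist, were above all normal libraries, and replicates 1 and 2 were near the lowest. The log2 fold change was 0.28, with a 95% interval from -0.66 to 1.22 (adjusted p = 0.611, edgeR). It was 1.03 in the libraries with Xist (adjusted p = 0.0395, edgeR) and -0.75 in those without. It was also below 0 without NcstnΔKC replicate 4 (-0.08) and under basal keratinocyte scaling (-0.19). Ltb, which forms membrane lymphotoxin with Lta, was at 2.43, 0.806, 1.69 and 2.21 CPM in normal and 1.51, 0.888, 2.0 and 2.22 in NcstnΔKC skin, with groups that overlapped throughout (-0.13, 95% interval -1.04 to 0.78). Lta was below the filter, with 8 counts over the normal and 16 over the deeper NcstnΔKC libraries. Its libraries were at 0.456, 0, 0.565 and 0.130 CPM in normal and 0.252, 0.205, 0.138 and 0.537 in NcstnΔKC skin. The 3 ligand genes lie side by side on chromosome 17.

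The RANKL system moved in opposite directions at ligand and receptor. Tnfsf11, which encodes RANKL, a cytokine of osteoclast and lymph node development that keratinocytes and T cells can also make (chr14:78277445-78308043), had the largest estimate of the tested members. It was at 0.607, 0, 0.424 and 0 CPM in normal and 1.17, 3.96, 10.9 and 9.67 in NcstnΔKC skin. All NcstnΔKC libraries were above all normal ones, replicate 1 least (4.54 ± 0.96, adjusted p = 0.00559, edgeR). With so few normal counts the size is poorly fixed, and it was 5.38 without normal replicate 1. Tnfrsf11a, its receptor RANK (chr1:105780718-105847981), was at 27.2, 13.5, 19.8 and 22.3 CPM in normal and 8.73, 12.8, 14.2 and 13.3 in NcstnΔKC skin. The groups overlapped, since normal replicate 2 lay among the NcstnΔKC libraries (-0.76 ± 0.24, adjusted p = 0.0323, edgeR). This call was lost in 10 of 23 alternatives, among them those without normal replicate 1, 3 or 4 or NcstnΔKC replicate 2 or 4, with estimates from -1.21 to -0.29 over all 23.

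Tnfrsf11b, the soluble decoy osteoprotegerin that binds RANKL (chr15:54250619-54278484), was at 24.0, 9.48, 16.8 and 20.8 CPM in normal and 3.10, 21.3, 27.2 and 31.6 in NcstnΔKC skin. Replicate 1 was the lowest library of all and replicates 3 and 4 the highest (0.22, 95% interval -1.08 to 1.52, adjusted p = 0.776, edgeR). The FPKM ratio of Tnfsf11 to Tnfrsf11b was 0 to 0.032 in normal and 0.235 to 0.503 in NcstnΔKC libraries, including 0.477 in replicate 1. Relative to its decoy, the ligand was thus higher in every NcstnΔKC library, as a description without a test.

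Promoter letters are printed for 3 members that differ in their response, Tnfsf11 and Tnf for a TATA match each and Tnfrsf8 for an NF-κB and an AP-1 match, these being factors downstream of TNF receptors. Each is the 250 bases before the gene's start in RefSeq (GRCm38.p6, minus strand, written 5′ to 3′ in the gene's direction), with the matches in capitals.
Tnfsf11, chr14:78308044-78308293: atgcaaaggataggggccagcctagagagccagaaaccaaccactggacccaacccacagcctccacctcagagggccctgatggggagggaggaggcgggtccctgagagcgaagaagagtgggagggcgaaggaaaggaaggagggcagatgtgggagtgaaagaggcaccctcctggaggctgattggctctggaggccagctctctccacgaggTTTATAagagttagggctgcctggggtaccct
Tnf, chr17:35202008-35202257: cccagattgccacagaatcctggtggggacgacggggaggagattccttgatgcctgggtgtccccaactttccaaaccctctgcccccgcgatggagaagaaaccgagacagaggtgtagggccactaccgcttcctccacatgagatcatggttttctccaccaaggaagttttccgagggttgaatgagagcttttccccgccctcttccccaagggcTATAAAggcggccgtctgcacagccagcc
Tnfrsf8, chr4:145315165-145315414: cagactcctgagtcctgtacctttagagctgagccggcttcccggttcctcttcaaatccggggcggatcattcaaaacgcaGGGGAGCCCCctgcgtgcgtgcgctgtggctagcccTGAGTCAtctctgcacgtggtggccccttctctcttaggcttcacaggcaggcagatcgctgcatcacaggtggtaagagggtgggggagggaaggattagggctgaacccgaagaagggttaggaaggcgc
The TATAAA match lay 32 to 27 bases before the start in Tnfsf11, on the opposite strand, and 29 to 24 bases before it in Tnf. In Tnfrsf8 the κB consensus lay 168 to 159 bases before the start, also on the opposite strand, so that the printed capitals are its reverse complement. The AP-1 letters TGANTCA, which read the same on both strands, lay 132 to 126 bases before the start. Both strands were searched, and letters of the κB consensus can overlap those of the RBPJ motif GTGGGAA. Of 39 windows of 35 members in RefSeq, each cut to the 250 bases before the start, 3 held the κB consensus (Ltb, Tnfrsf8 and Tnfrsf9). The share over all 32851 windows was 3.90%. The AP-1 letters were in 6 member windows against 6.75% of all, TATAAA in 7 against 12.4%, and GTGGGAA in 2 (Eda and Tnfrsf23) against 5.42%. A match describes letters and is not a bound site.

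Fn14 rose without its ligand. Tnfrsf12a, which encodes the TWEAK receptor Fn14, known to be induced in injured tissue (chr17:23675447-23677449), was at 3.49, 7.66, 4.24 and 1.95 CPM in normal and 26.7, 17.4, 20.0 and 24.9 in NcstnΔKC skin. All NcstnΔKC libraries, replicate 1 highest, were above all normal ones (2.38 ± 0.37, adjusted p = 0.0013, edgeR). Tnfsf12, which encodes TWEAK, was at 8.66, 9.88, 5.51 and 6.77 CPM in normal and 3.27, 6.42, 4.98 and 7.32 in NcstnΔKC skin. The groups overlapped (-0.48, 95% interval -1.15 to 0.20, adjusted p = 0.222, edgeR). The FPKM ratio of Tnfsf12 to Tnfrsf12a was 0.776 to 2.09 in normal and 0.074 to 0.223 in NcstnΔKC libraries. Of the sequence of Tnfsf12, 47.4% of 31-base stretches also occur in another gene, as it shares exons with the read-through transcript Tnfsfm13, so its counts are uncertain.

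The co-stimulatory receptors 4-1BB, OX40 and GITR, known from activated T cells, rose, while Cd27 and Cd40, the others of this group that were tested, did not pass. That is 3 of 5 higher, where 21.4% of all tested genes were. Tnfrsf9 (4-1BB, chr4:150914562-150946102) was at 0.304, 0.403, 1.13 and 0.651 CPM in normal and 2.27, 6.01, 5.25 and 8.60 in NcstnΔKC skin (3.10 ± 0.52, adjusted p = 0.00201, edgeR). Tnfrsf4 (OX40, chr4:156013843-156016612) was at 6.23, 6.25, 3.53 and 4.04 CPM in normal and 9.99, 12.6, 22.4 and 20.6 in NcstnΔKC skin (1.72 ± 0.33, adjusted p = 0.0033, edgeR). Tnfrsf18 (GITR, chr4:156026164-156028895) was at 8.96, 7.46, 5.08 and 8.47 CPM in normal and 11.3, 24.5, 31.9 and 21.1 in NcstnΔKC skin (1.57 ± 0.32, adjusted p = 0.00483, edgeR). In each the groups did not overlap, and NcstnΔKC replicate 1 was the lowest of its group. Tnfrsf4 and Tnfrsf18 are neighbours, 9.55 kb apart on chromosome 4, and 21.9% of the 31-base stretches of Tnfrsf18 also occur in another gene. The summed T cell markers were 81.4 to 168 CPM in normal and 101 to 249 in NcstnΔKC skin, with 3 of 10 higher (Cd5, Cd6 and Lck) and none lower. Most of this sum was Thy1, at 60.9 to 112 CPM in normal and 55.4 to 168 in NcstnΔKC skin, which did not pass. Cd3e was 11.6 CPM in normal and 13.4 in NcstnΔKC skin and Foxp3, a marker of regulatory T cells, 1.03 and 0.972, and neither passed. No T cell marker was at 0 in either group. The part of T cell number in these receptors was not tested.

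In NcstnΔKC skin the remaining receptors of this kind had lower mean levels than 4-1BB, OX40 and GITR. In normal skin Cd27 and Cd40 were above 4-1BB. Tnfrsf8 (CD30) was below the filter at 0, 0.202, 0.282 and 0.521 CPM in normal and 0.839, 1.02, 1.87 and 1.81 in NcstnΔKC skin, or 7 and 79 counts. Its groups did not overlap, and in a fit of 24750 genes without a filter, where 16.3% of genes were called higher and 13% lower, it was higher (2.49 ± 0.66, adjusted p = 0.0163, edgeR). Cd27 did not pass, with NcstnΔKC replicate 1 at 0.0839 CPM, below every normal library, and the other 3 at 1.78 to 3.76. Cd40, the receptor through which T cells activate B cells and dendritic cells, was at 1.67, 1.61, 1.27 and 1.95 CPM in normal and 0.755, 2.39, 1.80 and 2.08 in NcstnΔKC skin. These overlapped (0.12, 95% interval -0.73 to 0.97, adjusted p = 0.821, edgeR).

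Of the matching ligands, CD30 ligand was called higher in the filtered fit. Tnfsf8, which encodes it (chr4:63831308-63861347), was at 1.82, 0.806, 1.27 and 1.04 CPM in normal and 3.02, 6.56, 9.26 and 9.60 in NcstnΔKC skin (2.5 ± 0.43, adjusted p = 0.00215, edgeR). Thus its groups did not overlap, and receptor and ligand of this pair were both higher. Tnfsf9 (4-1BB ligand) was at 0.651 to 3.34 CPM in normal and 1.34 to 3.11 in NcstnΔKC skin, and Tnfsf18 (GITR ligand) at 0.403 to 2.96 and 1.68 to 5.60, and neither passed (adjusted p = 0.433 and 0.274, edgeR). Tnfsf4 (OX40 ligand) had 0 counts in all normal and 12 in the NcstnΔKC libraries, which is at least 1.88-fold higher when the normal group is set to 3 counts in all, and passed narrowly in the fit without a filter (adjusted p = 0.0496, edgeR). DESeq2's Wald test gave Tnfsf4 no adjusted p because of its low counts, and an unadjusted p of 0.092. Cd40lg (CD40 ligand) was at 0.456, 0.605, 0.424 and 0.130 CPM in normal and 0.252, 0.820, 1.11 and 2.49 in NcstnΔKC skin, or 10 and 68 counts, and did not pass in the fit without a filter (adjusted p = 0.1, edgeR). Tnfsf14 (LIGHT) was at 0.605 to 2.35 CPM in normal and 1.34 to 4.43 in NcstnΔKC skin (1.18 ± 0.49, adjusted p = 0.0787, edgeR). Cd70 had 1 count in all 8 libraries. By these calls ligand and receptor were both higher for CD30, with the receptor called in the fit without a filter. For OX40 both were higher too, but the ligand was called narrowly, in that fit and on 12 counts. For 4-1BB and GITR the receptor passed and the ligand did not. The difference between ligand and receptor was not tested.

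**Figure D3:**
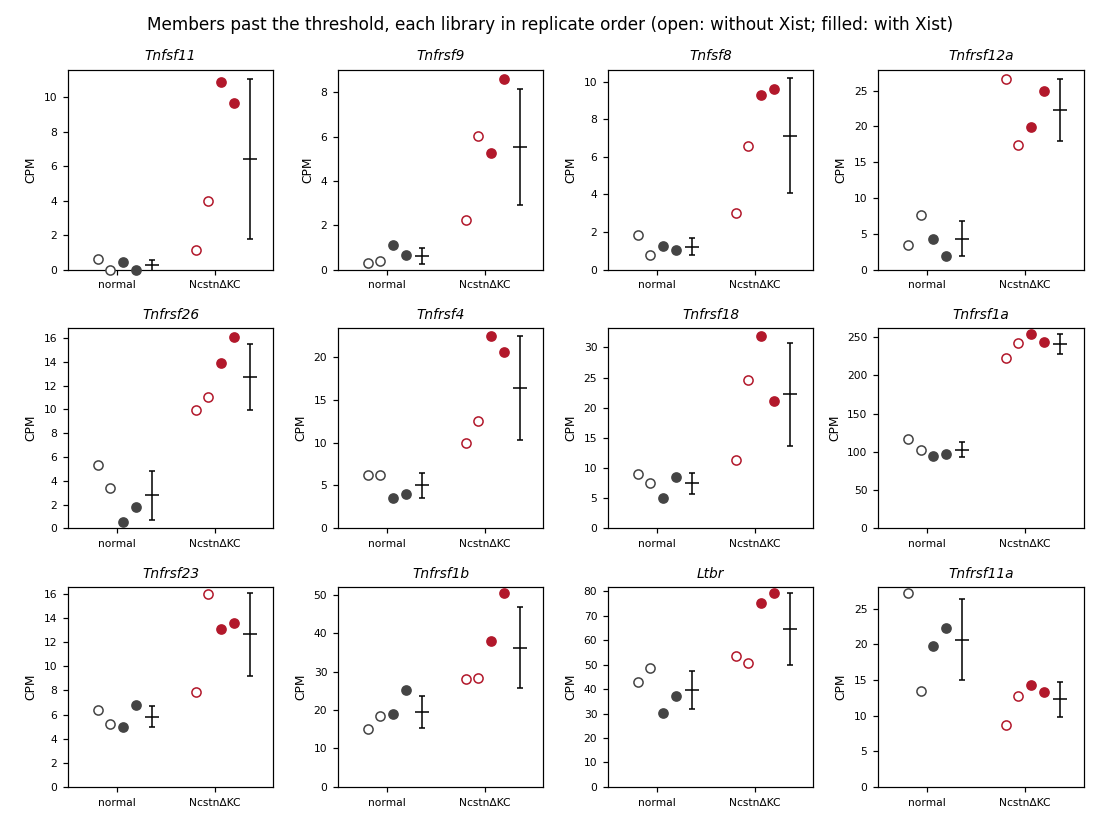
CPM of the 12 called members in each library, 1 panel a gene, with the mean and SD (n = 4) beside the points, filled points for libraries with Xist and open points for those without. In 11 panels every NcstnΔKC point is above every normal point, and in Tnfrsf11a normal replicate 2 at 13.5 CPM lies among the NcstnΔKC points.

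None of Fas, the TRAIL receptor, DR6 and DR3 passed in the filtered fit, nor did TRAIL, while FasL and DR6 were called higher in the fit without a filter. Fas was at 9.87, 9.27, 10.2 and 12.0 CPM in normal and 8.73, 12.5, 11.8 and 14.4 in NcstnΔKC skin (0.20, 95% interval -0.25 to 0.64, adjusted p = 0.441, edgeR). Fasl, the ligand of Fas on cytotoxic lymphocytes, was at 0.152, 0, 0 and 0.130 CPM in normal and 0.503, 0.683, 1.66 and 2.01 in NcstnΔKC skin. That is 2 against 70 counts, a ratio of 16.5 (95% counting interval 4.39 to 139), with groups that did not overlap (adjusted p = 0.00564, edgeR without a filter). Tnfsf10, which encodes the death ligand TRAIL, was at 9.72, 12.1, 11.4 and 10.2 CPM in normal and 4.45, 24.9, 27.1 and 25.4 in NcstnΔKC skin. NcstnΔKC replicate 1 was below all normal libraries and the other 3 above them (0.92 ± 0.47, adjusted p = 0.138, edgeR). Without replicate 1 the log2 fold change was 1.26 (adjusted p = 0.000323, edgeR). Tnfrsf10b, the mouse TRAIL death receptor, was at 6.53, 8.67, 5.36 and 6.64 CPM in normal and 9.57, 8.06, 9.26 and 7.72 in NcstnΔKC skin (0.35 ± 0.20, adjusted p = 0.182, edgeR). Tnfrsf21 (DR6) was at 34.9 to 63.9 CPM in normal and 58.1 to 73.2 in NcstnΔKC skin (0.44 ± 0.18, adjusted p = 0.0759, edgeR). Its estimate was 0.57 ± 0.19 in the fit without a filter (adjusted p = 0.0419, edgeR). Tnfrsf25 (DR3) was at 2.43 to 6.64 CPM in normal and 2.0 to 3.43 in NcstnΔKC skin and did not pass (adjusted p = 0.186, edgeR).

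On chromosome 7, 2 of 3 neighbouring receptor genes rose, where 21.4% of all tested genes were higher. The locus was not tested as a whole. Tnfrsf23, a decoy receptor for TRAIL (chr7:143665809-143685872), was at 6.38, 5.24, 4.94 and 6.77 CPM in normal and 7.89, 16.0, 13.1 and 13.6 in NcstnΔKC skin (1.11 ± 0.25, adjusted p = 0.00679, edgeR). Tnfrsf26 (chr7:143607685-143627845) was at 5.31, 3.43, 0.565 and 1.82 CPM in normal and 9.99, 11, 13.9 and 16.1 in NcstnΔKC skin (2.21 ± 0.51, adjusted p = 0.00792, edgeR). Both had groups that did not overlap, as had 41.6% of all tested genes, and Tnfrsf26 was at 2.85 without normal replicate 1. Tnfrsf22, another decoy for TRAIL that lies between them, was at 3.04 to 3.78 CPM in normal and 1.43 to 6.45 in NcstnΔKC skin (0.51 ± 0.42, adjusted p = 0.345, edgeR). Tnfrsf22 and Tnfrsf23 share sequence, 38.5% and 28.5% of their 31-base stretches, so reads may be split between them. How the counting treated such reads is not given in the sources used here.

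The ectodysplasin receptor Edar was lower in the fit without a filter, and hair follicle markers were lower too. Edar, the receptor through which ectodysplasin A acts in hair placodes (chr10:58600789-58675654), was below the filter at 2.58, 0.806, 3.81 and 2.35 CPM in normal and 0.420, 0.342, 0.553 and 0.201 in NcstnΔKC skin. The groups did not overlap, with 66 against 21 counts and a ratio of 0.150 (95% counting interval 0.087 to 0.248) after scaling. It was lower in the fit without a filter (-2.51 ± 0.53, adjusted p = 0.00516, edgeR). Eda, the ligand (chrX:99975606-100400762), was at 8.66, 9.68, 7.62 and 8.34 CPM in normal and 6.88, 5.19, 6.64 and 5.78 in NcstnΔKC skin. Its groups did not overlap in CPM, yet it missed the threshold (-0.48 ± 0.18, adjusted p = 0.0582, edgeR). In FPKM they overlapped, at 0.376 to 0.509 in normal and 0.364 to 0.457 in NcstnΔKC skin. Eda passed in 3 of 23 alternatives, under upper-quartile scaling (-0.55), under basal keratinocyte scaling (-0.96) and without NcstnΔKC replicate 1 (-0.54). Its estimate was nearer 0 under total-count scaling (-0.18), on log2 (FPKM + 1) (-0.05) and without a filter (-0.35). Eda2r, the receptor for the other ectodysplasin isoform, was at 6.53, 11.7, 18.4 and 12.1 CPM in normal and 18.0, 11.3, 10.5 and 9.07 in NcstnΔKC skin, with groups that overlapped throughout (0.00, 95% interval -0.74 to 0.75). Tnfrsf19 was at 70.6 to 113 CPM in normal and 59.7 to 105 in NcstnΔKC skin and did not pass (adjusted p = 0.794, edgeR). All 7 tested of 12 hair follicle markers were lower, with summed levels of 394, 38046, 234 and 689 CPM in normal replicates 1 to 4 and 77.8 to 97.2 in NcstnΔKC skin, and Krt25 was at 0 in all NcstnΔKC libraries. Normal replicate 2 had by far the highest sum, of which Tchh alone was 28383 CPM, and the lowest Edar level of the normal libraries. Every marker but Lhx2 was highest there among the normal libraries, Sox9 and Lgr5 only narrowly. In normal replicates 1 to 4 Lhx2 was at 53.4, 35.3, 31.8 and 47.8 CPM, Sox9 at 191, 194, 113 and 127, and Lgr5 at 46.6, 49.0, 26.5 and 27.5. The part of follicle content in the Edar value was not tested.

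The members that act on B cells did not pass. Tnfsf13b (BAFF) was at 0.759 to 1.61 CPM in normal and 0.820 to 2.90 in NcstnΔKC skin, and Tnfsf13 (APRIL) at 3.02 to 6.64 and 1.93 to 8.02. Their receptor Tnfrsf13b (TACI) was at 2.35 to 3.11 and 0.671 to 4.37 CPM. The receptors Tnfrsf13c (BAFF receptor) and Tnfrsf17 (BCMA) were below the filter, with 14 against 5 and 20 against 31 counts. As the NcstnΔKC libraries were deeper, both had lower mean levels there. Tnfrsf13c was at 0.597 CPM in normal and 0.0844 in NcstnΔKC skin, a ratio of 0.168 after scaling (counting interval 0.0474 to 0.494). Tnfrsf17 was at 0.773 and 0.526 CPM, a ratio of 0.729 (0.403 to 1.35). Neither passed in the fit without a filter (adjusted p = 0.102 and 0.75, edgeR). The summed B and plasma cell markers were 4.03 to 16.0 CPM in normal and 3.94 to 72.5 in NcstnΔKC skin, of which 1 of 2 tested (Jchain) was higher. Tnfsfm13 and Tnfsf13os, the read-through and antisense transcripts of the locus, were at 2.89 to 4.56 against 1.59 to 5.24 CPM and at 0.911 to 2.68 against 0.547 to 0.923 CPM. Neither passed, the antisense transcript in the fit without a filter, and without the strand setting sense and antisense reads cannot be told apart. Tnfsf15 (TL1A), a ligand of DR3, was at 2.22 to 4.52 CPM in normal and at 22.1, 2.32, 1.18 and 1.28 in NcstnΔKC replicates 1 to 4, so its mean rested on replicate 1 (1.13 ± 0.95, adjusted p = 0.357, edgeR).

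**Figure D4:**
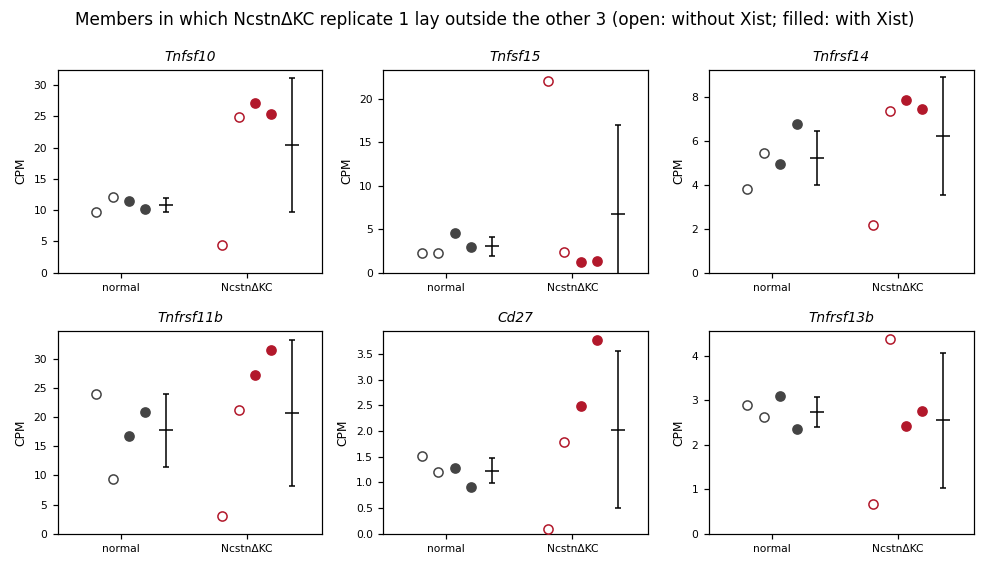
CPM in each library of members for which NcstnΔKC replicate 1 lay outside the other 3 NcstnΔKC libraries, with mean and SD (n = 4) and axes that start at 0, so that an error bar reaching below 0 is cut there. Replicate 1 is above the others in Tnfsf15, at 22.1 CPM, and below them in the rest, at 4.45 for Tnfsf10 and 2.18 for Tnfrsf14.

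Among the signalling genes downstream of these receptors, Traf3, Ripk3, Birc3, Tnfaip3 and Chuk rose and Traf5 fell. Of 36 listed genes, all tested, 12 were higher, 4 lower and 20 did not pass, a called share of 44.4% beside the 44.1% of all genes, so the share was near the background. Their median log2 fold change was 0.36. The list also holds Adam17, Sppl2a and Traf3ip2, which are not signalling genes downstream of TNF receptors. Of these, Sppl2a was among the 12 higher (0.60 ± 0.11, adjusted p = 0.00336, edgeR), and Adam17 and Traf3ip2 did not pass. Traf3, an adaptor that restrains non-canonical NF-κB signalling, was at 24.4, 25.8, 20.2 and 20.6 CPM in normal and 55.4, 67.8, 64.9 and 59.6 in NcstnΔKC skin (1.45 ± 0.14, adjusted p = 0.00017, edgeR). Ripk3, the kinase of necroptosis, was at 3.95, 3.83, 2.68 and 2.74 CPM in normal and 10.7, 13.5, 15.2 and 12.8 in NcstnΔKC skin (1.99 ± 0.22, adjusted p = 0.000291, edgeR). Birc3, a ubiquitin ligase that limits cell death, rose by 1.21 ± 0.16, Tnfaip3 (A20, an inhibitor of NF-κB signalling) by 1.38 ± 0.23 and Chuk (the kinase IKKα) by 0.86 ± 0.12. In these 5 genes every NcstnΔKC library was above every normal one.

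Traf5, an adaptor for receptors such as OX40 and CD27, was at 42.7, 22.0, 31.9 and 33.4 CPM in normal and 6.63, 7.86, 9.19 and 8.66 in NcstnΔKC skin (-2.0 ± 0.22, adjusted p = 0.000297, edgeR). It was thus lower in every NcstnΔKC library, while Tnfrsf4 was higher. Tab2 (-0.83), Tnip1 and Tank were the other genes that fell. Traf2, the adaptor of TNF receptor complexes, was higher by 0.45 ± 0.15 (adjusted p = 0.039, edgeR), and this call was lost in 12 of 23 alternatives. Tradd (0.31 ± 0.41), Ripk1 (0.10 ± 0.16) and Edaradd, the adaptor of Edar (0.48 ± 0.24), did not pass. Under basal keratinocyte scaling 4 genes of the list were higher and 7 lower, and under total-count scaling 21 and 2. Of all 15684 tested genes, 1000 were higher and 5821 lower under the former, and 5323 and 2224 under the latter. The 6 genes with the lowest p kept their direction under every alternative, which for subsets of the libraries was largely fixed by their selection. All lost their call in the libraries without Xist, and Chuk lost it under basal keratinocyte scaling too (0.39, adjusted p = 0.134, edgeR).

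**Figure D5:**
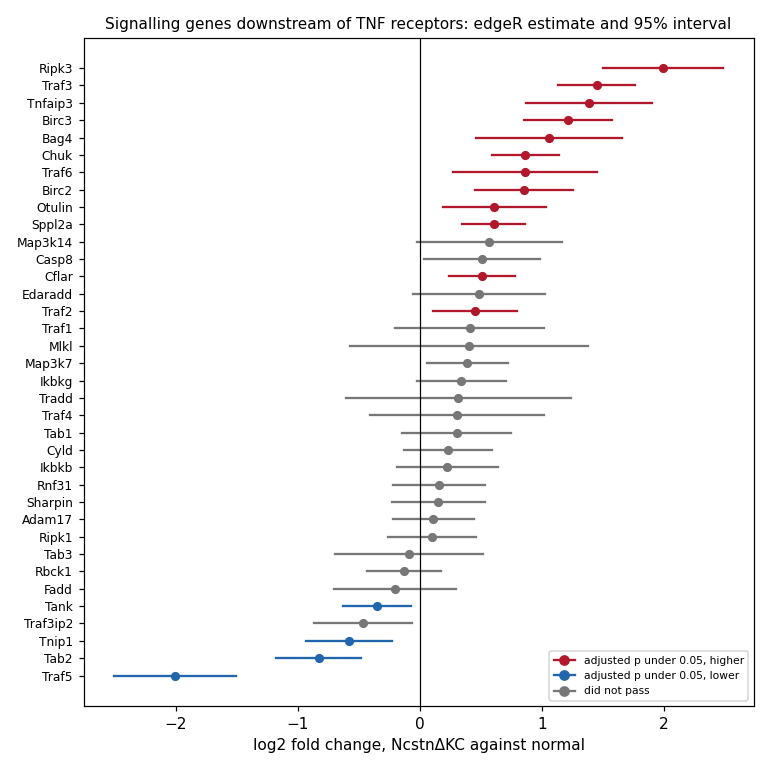
Estimated log2 fold change of NcstnΔKC against normal skin for the 36 signalling genes, with bars for the 95% interval and colour for the call at an adjusted p under 0.05. Ripk3 and Traf3 are at the upper end, at 1.99 and 1.45, and Traf5 at the lower end, at -2.0.

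Other cell type markers also differed between the groups, beside which the member values stand. All 7 tested neutrophil markers were higher, summing to 3.19 to 13.9 CPM in normal and 94.7 to 381 in NcstnΔKC skin, and Ly6g was at 0 in normal skin. Of 9 macrophage markers 5 were higher, and their sums overlapped only through NcstnΔKC replicate 1. Dendritic and Langerhans cell markers summed to 168 to 213 CPM in normal and 130 to 151 in NcstnΔKC skin, with 4 of 6 tested lower and 0 higher. Basal keratinocyte markers summed to 9319 to 13716 CPM in normal and 13748 to 17501 in NcstnΔKC skin, with 10 of 13 higher and 2 lower. All 8 skeletal muscle markers were lower, at 6593 to 62204 against 587 to 5356 CPM. The part of cell composition in the member values was not tested.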

How the data were processed

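Counts per gene and FPKM values were deposited by the authors in 1 table of 8 libraries, per the file headers. The submitters' processing notes name TopHat2 2.0.9, TopHat, HTSeq and the builds hg38 and mm10, without roles. Which annotation release and strand setting were used, and how multi-mapped reads were handled, is not given in the sources used here. Coordinates are those of the table, and 35 of 46 members have the same coordinates in GENCODE release M21 (GRCm38). FPKM was checked against the counts, and CPM was computed from the counts over TMM-scaled library sizes.

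Libraries were grouped by label. Genes passing filterByExpr (15684) were tested by the quasi-likelihood method of edgeR (version 4.0.16 under R 4.3.3; robust and two-sided), with Benjamini-Hochberg adjustment over all of them and a threshold of 0.05. The SE is the log2 fold change over the root of the F statistic. DESeq2 1.42.0, limma 3.58.1 on log2 (FPKM + 1) and voom, other scalings and filters, a replicate block, Xist subsets and each library left out were alternatives. The group by Xist test was added after seeing the data. Replicate numbers were not taken as pairs, since no label pairs animals and same-numbered libraries deviated together with correlations of -0.025 to 0.215. Floors are 3 counts, and intervals of ratios are 95% and cover counting error only. The procedure was tested on simulated data.

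The members and lists were chosen with earlier results of these data known. All called members are described, together with a set of ligands, receptors and adaptors named whatever their p, and the 6 signalling genes with the lowest p. Values of Cd27, Tnfrsf14 and Tnfsf15 were given in more detail after their values were seen. Shared sequence was counted as 31-base stretches of GENCODE transcripts found in another gene.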

Additional observations from a re-analysis of the deposited data

Results flagged for a closer look

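In 3 of 72 groups of 4 libraries, over the 36 tested members, 1 library lay far from the other 3, where chance flags about 1 in 20 such groups. All 3 cases were NcstnΔKC replicate 1. Tnfsf15 was at 22.1 CPM in that library against 1.18 to 2.32 in the other NcstnΔKC libraries. Tnfsf10 was at 4.45 CPM against 24.9 to 27.1. Tnfrsf14 was at 2.18 CPM against 7.38 to 7.88. The cause was not tested.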

How the results depend on the processing

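Each count was recomputed under alternatives that changed 1 choice each, except that DESeq2's Wald test also changed scaling and filter, limma on FPKM also changed scaling, and 1 alternative left out a pair of libraries. The members called higher (11) numbered 0 in the libraries without Xist, 21 in those with it, 17 without both NcstnΔKC replicate 1 and normal replicate 2, and 10 to 16 with each library left out. Of all tested genes, 21.4% were higher as reported, 26.3% in the libraries with Xist, 24.7% without both libraries and 24.4% without NcstnΔKC replicate 1. The members called lower (1) numbered 2 with upper-quartile scaling, DESeq2's Wald test and both libraries left out, 4 with basal keratinocyte scaling and in the libraries with Xist, and 0 to 3 with each library left out. They numbered 0 with total-count scaling, limma on FPKM, the replicate block, the libraries without Xist, and a log2 change of at least 1. The signalling genes called higher (12) numbered 21 with total-count scaling, 4 with basal keratinocyte scaling, 0 without and 19 with Xist, 5 with a log2 change of at least 1, and 10 to 15 with each library left out. Those called lower (4) numbered 2 with total-count scaling, limma on FPKM and no filter, 7 with basal keratinocyte scaling, 0 in the libraries without Xist, 1 with a log2 change of at least 1, and 2 to 5 with each library left out. The cause of these shifts was not tested, except that each subset holds fewer libraries.

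Scaling set the split of all genes. It was 3360 higher and 3555 lower as reported, 5323 and 2224 with total-count scaling, 5344 and 2123 with FPKM (median 0.20), and 1000 and 5821 with basal keratinocyte scaling. The median of the tested members was then 0.84, 0.46 and 0.05. The replicate block, which is no pairing here, left 11 members higher, with Tnfsf14 gained and Ltbr (0.70) and Tnfrsf11a lost. All 12 called members lost their call in the libraries without Xist and kept their direction, which their selection on all 8 libraries largely fixed. Tnfrsf23 (0.62) also lost it with basal keratinocyte scaling.

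Log2 fold changes of genes that did not pass, and of Traf2, turned sign as follows. With basal keratinocyte scaling Cd40 was -0.38, Eda2r -0.46, Fas -0.29, Lta -0.47, Ripk1 -0.37, Tnf -0.19, Tnfrsf10b -0.13, Tnfrsf11b -0.25, Tradd -0.22 and Traf2 -0.0021. In the libraries without Xist Cd40 was -0.045, Lta -0.0094, Ripk1 -0.15, Tnf -0.75 and Tnfrsf11b -0.46. In those with Xist Eda2r was -0.60, Ltb 0.14 and Tnfsf12 0.038. Eda2r was -0.065 and Lta -0.078 with upper-quartile scaling, and -0.26 and -0.28 with both libraries left out. Lta was -0.024 with DESeq2's size factors and -0.017 with its Wald test. Ltb was 0.17 with total-count scaling, 0.067 with FPKM and 0.0018 with no filter. Tnfrsf11b was -0.10 with voom. With each library, or the pair above, left out Cd40 ranged from -0.057 to 0.36, Eda2r from -0.26 to 0.34, Lta from -0.50 to 0.57, Ltb from -0.31 to 0.11, Tnf from -0.076 to 0.51 and Tnfrsf11b from -0.041 to 0.58. Depth limits Lta, Cd70, Tnfsf4 and the normal values of Fasl and Tnfsf11, which rest on few counts.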
